A study of Rattus norvegicus with 10 samples.

Results

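Ltc4s encodes leukotriene C4 synthase, the membrane enzyme that joins leukotriene A4 to glutathione. It was followed here as 1 gene, identifier ENSRNOG00000003244, of 32883 genes in a count table of CD11b+ cells. CD11b is an integrin chain carried by myeloid cells, and the cells came from the striatum of the bleed in male rats of the Sprague-Dawley (SD) strain on day 3 after intracerebral hemorrhage (ICH). Rats of the ICH + rhCDNF group received recombinant human CDNF, an endoplasmic reticulum-resident neurotrophic factor, in the ventricle 1 h after ICH, and rats of the ICH + saline group received saline. Both groups carried the hemorrhage, the animals were 12 weeks old, and each group gave 5 libraries. No library from an animal without hemorrhage was analysed here. The selection by CD11b takes resident microglia, infiltrated monocytes and macrophages and other myeloid cells together.

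Ltc4s was chosen by its difference in level between these groups, so its group difference is given as a description with no test. Libraries are called by their sequencing index, S6 to S10 for ICH + rhCDNF and S1 to S5 for ICH + saline. The study's methods count n in animals, so the libraries of a group are taken here as separate animals.

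Leukotriene C4 is the parent of the cysteinyl leukotrienes, lipid mediators of vascular leakage and leukocyte recruitment. Arachidonic acid is released by phospholipase A2 and turned into leukotriene A4 by 5-lipoxygenase with its activating protein. Leukotriene C4 synthase then conjugates it with glutathione, while leukotriene A4 hydrolase turns the same precursor into leukotriene B4. Dipeptidases and gamma-glutamyl transferases trim leukotriene C4 outside the cell. The enzyme is known from mast cells, basophils, eosinophils and cells of the monocyte lineage, and in mouse brain Ltc4s transcripts are found in microglia.

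The sequence around the annotated start of rat Ltc4s is shown because it is the regulatory sequence of the gene the values belong to. It is the RefSeq window of 300 bases on GRCr8, chr10:35063545-35063844, minus strand, with the bases from the transcript start onward in capitals.
Ltc4s: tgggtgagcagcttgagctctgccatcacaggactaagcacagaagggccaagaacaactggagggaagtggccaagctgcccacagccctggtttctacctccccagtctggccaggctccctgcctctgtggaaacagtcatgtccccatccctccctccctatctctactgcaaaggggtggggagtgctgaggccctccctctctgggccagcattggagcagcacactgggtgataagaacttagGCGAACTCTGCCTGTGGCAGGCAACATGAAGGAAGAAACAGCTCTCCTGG
The window held 0 copies each of GAGGAA, a form of the ETS motif bound by PU.1, of TATAAA and of GGGCGG, a GC box. Each was searched on both strands. The shorter ETS core GGAA, which the window does hold, was not counted. Of 33469 rat promoter windows, 27.6% held GAGGAA, 14.2% held TATAAA and 33.1% held GGGCGG. These are matches of letters only, and the libraries do not measure binding.

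The libraries held 14376582 to 16784638 counts. Library S6 of the ICH + rhCDNF group stood apart: the chi-square per gene between it and the others of its group was 31.9 to 62.4, against 8.002 to 29.1 for all other pairs within the groups. Values without S6, or its own level, are given for some of the results it bears on. A gene was called where the Benjamini-Hochberg adjusted p of edgeR's quasi-likelihood test was under 0.05. The test over 12199 genes called 0% of them, with 841 genes higher (6.89%) and 670 genes lower (5.49%) in ICH + rhCDNF at an unadjusted p under 0.05. DESeq2 called 2 genes, Enpp2 and Tnk2, and edgeR's likelihood ratio test called these and 1 more, Fndc1, all higher in ICH + rhCDNF. The names of these 3 genes were looked up after their values were seen.

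Ltc4s reads numbered 302, 313, 229, 447 and 157 in ICH + rhCDNF libraries S6 to S10, against 145, 141, 131, 173 and 148 in ICH + saline libraries S1 to S5. In CPM, counts relative to the TMM-scaled size of the library, the level was 17.7, 20.9, 15.8, 29.5 and 10.99 in ICH + rhCDNF, against 8.54, 9.39, 8.56, 11.9 and 10.6 in ICH + saline. S9 was the highest library of all, and S6, S7, S8 and S9 lay above every ICH + saline library. S10 lay below saline library S4, so the groups overlapped by this 1 library. Libraries of 119 genes (0.975%) did not overlap and were higher in ICH + rhCDNF, and Ltc4s was not among them.

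**Figure D1:**
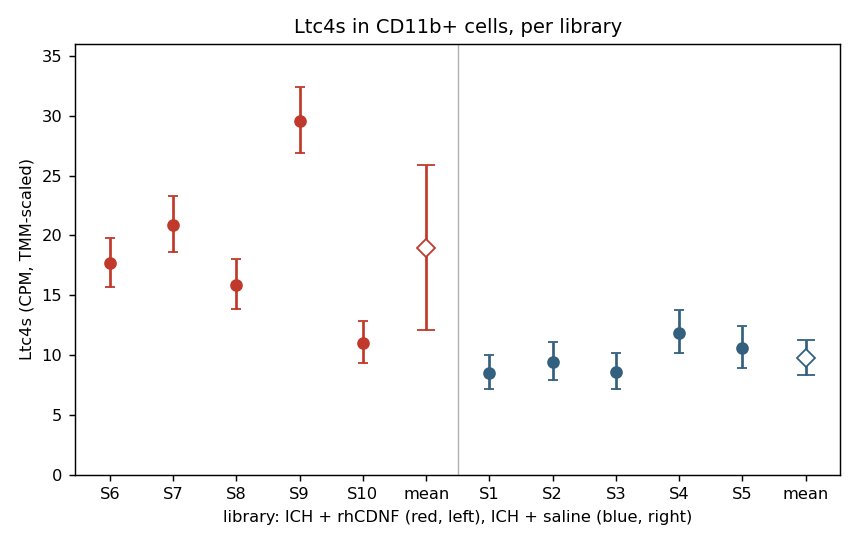
Ltc4s in CPM (TMM-scaled) in each library, ICH + rhCDNF in red and ICH + saline in blue; filled points are libraries with their 95% Poisson interval, and open diamonds are group means ± SD (n = 5 each). The 4 ICH + rhCDNF libraries S6 to S9 sit above all ICH + saline libraries, and S10, at 10.99, sits below saline library S4, at 11.9.

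The mean level was 19.0 ± 6.90 CPM in ICH + rhCDNF and 9.79 ± 1.44 CPM in ICH + saline (SD, n = 5 each). The fitted log2 fold change was 0.96 (SE 0.22), or 1.94-fold. Of the 12199 genes, 56 (0.459%) had a larger positive log2 fold change, and the median over all genes was 0.00093. The ratio of the group medians, 17.7 CPM in ICH + rhCDNF over 9.39 CPM in ICH + saline, gave 0.91 on the log2 scale. In bulk libraries, more cells that carry Ltc4s and more Ltc4s RNA per cell cannot be told apart.

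The ICH + rhCDNF libraries also differed more among themselves. The highest library held 2.69 times the level of the lowest in ICH + rhCDNF, and 1.39 times in ICH + saline. The coefficient of variation was 36.3% in ICH + rhCDNF and 14.7% in ICH + saline. On the log2 scale the SD of Ltc4s was 0.52 in ICH + rhCDNF and 0.20 in ICH + saline, where the median gene had 0.16 in ICH + rhCDNF and 0.13 in ICH + saline. Ltc4s exceeded 93.0% of the genes in this spread in ICH + rhCDNF and 71.7% in ICH + saline. The 95% Poisson interval, which covers counting error only, was 26.9 to 32.4 CPM for S9 and overlapped that of no other library, while S10 had 9.34 to 12.8 CPM and S4 of the saline group 10.2 to 13.8 CPM.

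With each library left out in turn, the log2 fold change of Ltc4s ranged between 0.74, without S9, and 1.10, without S10. Without S6, the library that stood apart, it was 0.98. Leaving out an ICH + saline library gave 0.91 to 1.04. The mean of ICH + rhCDNF stayed above that of ICH + saline in all 10 fits.

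**Figure D2:**
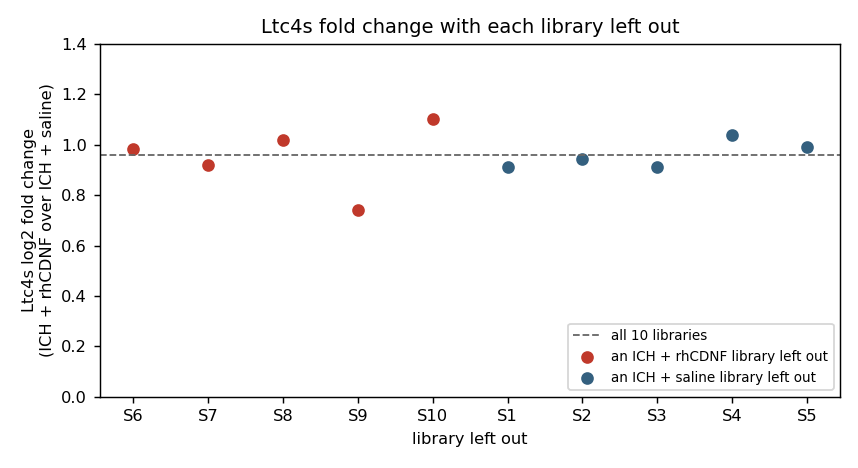
Log2 fold change of Ltc4s (ICH + rhCDNF over ICH + saline, edgeR) with the library named on the horizontal axis left out; the dashed line is the value with all 10 libraries, 0.96. The lowest point is the fit without S9, at 0.74, and the highest the fit without S10, at 1.10.

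A list of 34 microglia genes, among them Jun, which also stood in the list of early activation genes below, was then set beside Ltc4s. Of these, 25 could be given an identifier, and all 25 passed the filter on low counts. Symbols could be given only to genes in the smallest-p rows of a table ranked on this same contrast, so the named genes are a selected sample: 63.1% of the 777 named genes had a higher mean in ICH + rhCDNF, against 50.4% of all genes tested. The 25 genes, and the named genes of the other lists below, are therefore no independent evidence of a direction or of a lack of overlap. All 25 had a higher mean in ICH + rhCDNF, 0 passed the adjusted threshold, where 0% of all genes did, and 0 had libraries that did not overlap, where 0.975% of all genes were higher in that way. Their median log2 fold change was 0.40 (0.22 to 0.71), against 0.26 over the 777 named genes. Without S6 the median of the 25 genes was 0.28. None reached the 0.96 of Ltc4s, which was chosen for its difference.

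Among genes that mark the identity of homeostatic microglia, Sall1, a transcription factor of the microglial lineage, averaged 334 ± 128 CPM in ICH + rhCDNF and 208 ± 25.3 CPM in ICH + saline (SD, n = 5 each). This is 0.68 higher in ICH + rhCDNF on the log2 scale (SE 0.21, edgeR adjusted p = 0.37). Sall1 was at 521 CPM in S6 and 223 to 414 CPM in S7 to S10, against 178 to 246 CPM in ICH + saline. P2ry12, the purinergic receptor that guides microglial processes, averaged 204 ± 69.0 CPM in ICH + rhCDNF and 138 ± 17.7 CPM in ICH + saline. Tmem119, a microglial surface protein, averaged 77.3 ± 50.8 CPM in ICH + rhCDNF and 53.1 ± 21.9 CPM in ICH + saline. F11r, a junctional adhesion molecule, had the largest log2 fold change of the list, 0.71 (SE 0.21, edgeR adjusted p = 0.37). Csf1r, the receptor on which microglia depend for survival, averaged 2889 ± 532 CPM in ICH + rhCDNF and 2412 ± 227 CPM in ICH + saline. The fractalkine receptor gene Cx3cr1 averaged 385 ± 110 CPM in ICH + rhCDNF and 314 ± 10.5 CPM in ICH + saline. Each of these 6 genes overlapped between the groups.

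The correlation of the list with Ltc4s was then described. The value over all 10 libraries contains the group difference for which Ltc4s was chosen, so it is a description with no p. Pearson's r with Ltc4s, on log2 CPM, had a median of 0.71 over the 25 genes (0.50 to 0.83), against a median of -0.015 over all 12198 other genes and 0.44 over the 777 named genes. Csf1r and Golm1, a Golgi membrane protein gene, had the highest r of the list, both 0.83, and Gpr34, a lysophosphatidylserine receptor gene, the lowest, 0.50. Leaving out each library gave a median r of 0.55 to 0.79, with the lowest value without S9. Some single genes moved more without S9. Tmem119 went from 0.61 to 0.23, Cx3cr1 from 0.59 to 0.30 and P2ry12 from 0.71 to 0.44. Csf1r stood at 0.65 and Golm1 at 0.69 without S9. Spearman's rho of Cx3cr1 over all libraries was 0.31.

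With each library taken as its deviation from its group mean, the median r of the list was 0.55 (0.22 to 0.75). Over all 12198 genes, 0 passed an adjusted p under 0.05 in the exact permutation test within groups, for Pearson's r or for Spearman's rho. This test was two-sided over 14400 rearrangements, and 5.15% of genes had an unadjusted p under 0.05. Csf1r had the highest centred r of the list, 0.75 (exact permutation p = 0.041, adjusted p = 0.96). Its centred rho was 0.71 (exact permutation p = 0.068, adjusted p = 0.74). Of the 25 genes, only 1, Csf1r, had an unadjusted p of centred r under 0.05, where 5.15% of all genes had one. As the highest of 25 genes, its p is no support for a relation. The pooled r of Csf1r was 0.80 without S9 and S7, the 2 libraries farthest from the median of Ltc4s. The smallest p this test can give is 6.9e-05, which is too large for 1 gene alone to pass adjustment over 12198 genes. The adjusted test therefore cannot decide whether Ltc4s and single microglia genes are related within the groups.

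**Figure D3:**
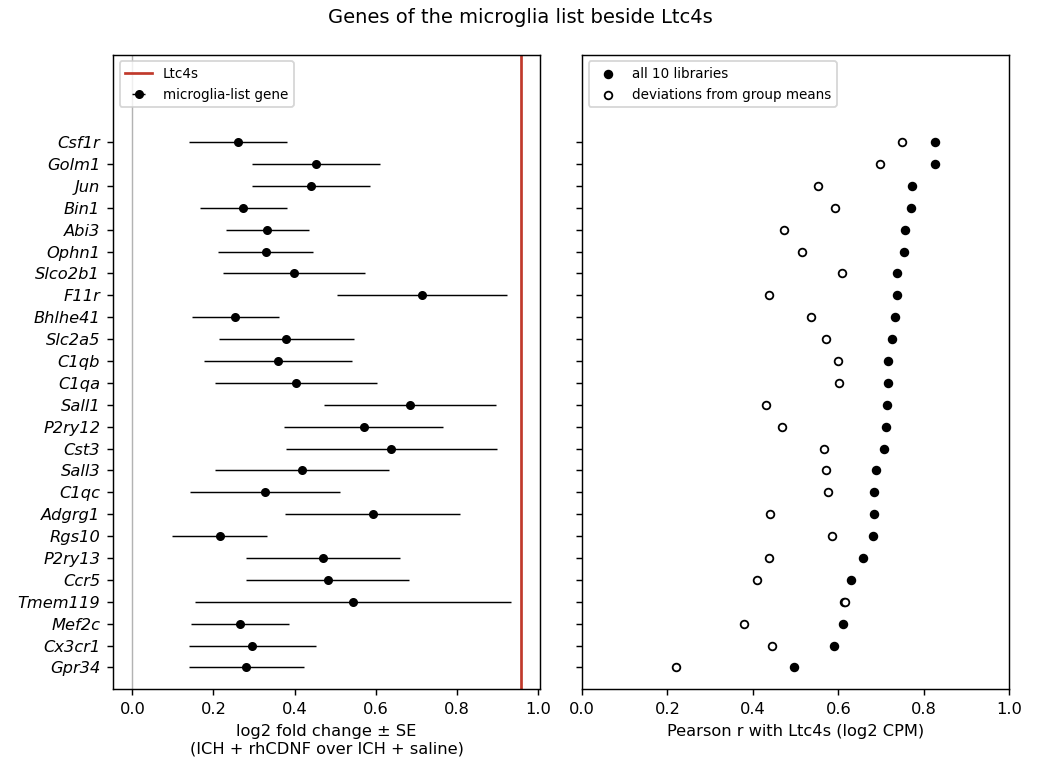
The 25 named genes of the microglia list, ordered by r with Ltc4s: left, log2 fold change ± SE (ICH + rhCDNF over ICH + saline) with the red line at Ltc4s, 0.96; right, Pearson's r with Ltc4s on log2 CPM over all 10 libraries (filled) and on deviations from group means (open). Every gene lies to the left of Ltc4s in fold change, and the median r is 0.71 over all libraries and 0.55 on deviations.

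Ltc4s was next set against the list as a whole. The summed CPM of the 25 genes was 18195, 10844, 10385, 17280 and 10715 in ICH + rhCDNF libraries S6 to S10, against 9126, 9575, 9190, 11728 and 10880 in ICH + saline libraries S1 to S5. Only S6 and S9 had a sum above that of every ICH + saline library, whereas Ltc4s was above every ICH + saline library in S7 and S8 too. As a difference in log2 CPM from the mean of the 25 genes, Ltc4s stood at -4.12, -3.20, -3.51, -3.34 and -4.15 in S6 to S10, against -4.21, -4.13, -4.29, -4.11 and -4.11 in S1 to S5. S7, S8 and S9 were higher than every ICH + saline library in this difference, and S6 and S10 lay within the ICH + saline range.

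The mean difference was -3.66 ± 0.45 in ICH + rhCDNF and -4.17 ± 0.078 in ICH + saline (SD, n = 5 each), which is 0.51 higher in ICH + rhCDNF on the log2 scale, or 1.42-fold, against 0.96 for Ltc4s alone. With each library left out it ranged between 0.39 and 0.63, and it contains the group difference for which Ltc4s was chosen. S6 and S9 had nearly the same mean of the list, 8.27 for S6 and 8.23 for S9 on the log2 CPM scale, with Ltc4s at 17.7 CPM in S6 and 29.5 CPM in S9. The part of cell composition in the level of Ltc4s was not tested.

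**Figure D4:**
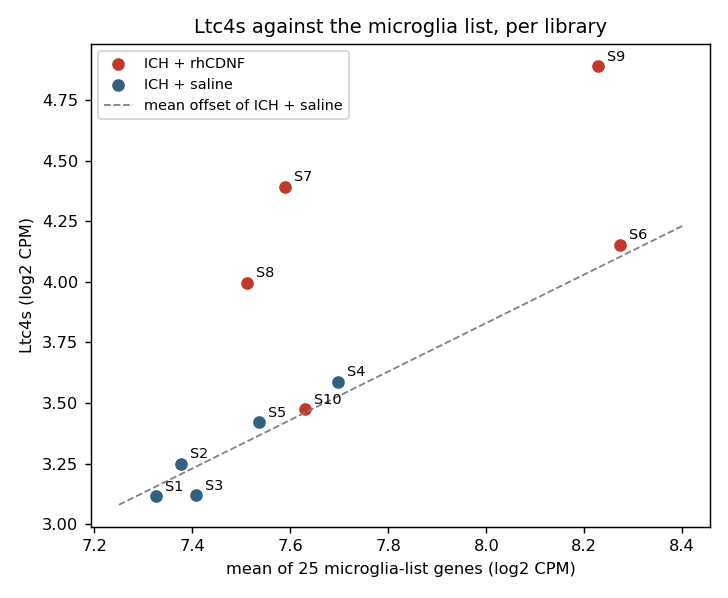
Ltc4s against the mean of the 25 named microglia-list genes, both in log2 CPM, 1 point per library, ICH + rhCDNF in red and ICH + saline in blue; the dashed line has the mean offset of ICH + saline, -4.17. S6 and S10 lie near the line with the ICH + saline libraries, and S7, S8 and S9 lie above it.

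The means of other myeloid lists differed between the groups as well. Of 18 genes of disease-associated phagocytes, 10 were named. Of these, 9 had a lower and 1 a higher mean in ICH + rhCDNF, with a median log2 fold change of -0.30. Libraries of 3 (Apoe, Gpnmb and Cd63) did not overlap and were lower in ICH + rhCDNF, where 1.26% of all genes were. Naming favoured genes that differ in this contrast, so the share over all genes is no matched base for these 3. The share among named genes was not computed. The summed level of the 10 genes was 26980 to 47261 CPM in ICH + rhCDNF and 49550 to 56852 CPM in ICH + saline, lowest in S6. Of 14 genes of infiltrating monocytes and macrophages, 8 were named, 2 with a higher and 6 with a lower mean in ICH + rhCDNF. Their summed level was 3440 CPM in S6 and 5508 to 6419 CPM in S7 to S10, against 6544 to 7657 CPM in ICH + saline. The 4 named genes of 8 for border-associated macrophages all had a lower mean in ICH + rhCDNF. None of these genes passed the adjusted threshold. Only identifiers above 0 in all libraries could be named, so markers at 0 in a library are not covered here. Over all libraries Ltc4s had a median r of -0.53 with the phagocyte genes and -0.33 with the infiltrating genes. These values contain the group difference. On deviations from group means the median was -0.15 with the phagocyte genes and 0.039 with the infiltrating genes. The part of these genes in the difference of Ltc4s was not tested. None of 13 markers of mast cells, basophils and eosinophils, cells known for leukotriene C4 synthase, could be named, and they were not analysed here.

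Genes of early activation, which respond within minutes to handling of tissue, were all higher in mean in ICH + rhCDNF for the 9 of 10 named, with a median log2 fold change of 0.41 and 0 past the adjusted threshold. Their summed level was 5053 CPM in S6 and 2799 to 3768 CPM in S7 to S10, against 2553 to 3229 CPM in ICH + saline. Their median r with Ltc4s was 0.49 over all libraries and 0.35 on deviations from group means. Jund, a subunit of the AP-1 factor, had the highest r over all libraries, 0.84. Of markers of non-myeloid cells, the 4 named astrocyte genes of 8 all had a higher mean in ICH + rhCDNF, with a median log2 fold change of 0.53, above that of the microglia list, and summed to 184 to 260 CPM in ICH + rhCDNF and 146 to 210 CPM in ICH + saline. The 3 named endothelial genes of 8 also all had a higher mean in ICH + rhCDNF, with a median of 0.60, and summed to 39.0 to 86.4 CPM in ICH + rhCDNF and 26.0 to 65.0 CPM in ICH + saline. The 6 named oligodendrocyte genes of 10, 4 with a higher and 2 with a lower mean in ICH + rhCDNF and a median of 0.31, summed to 233 to 314 CPM in ICH + rhCDNF and 220 to 259 CPM in ICH + saline. The only named neutrophil gene of 8, with a log2 fold change of -0.66, was at 1.52 to 6.44 CPM in ICH + rhCDNF and 0.825 to 10.4 CPM in ICH + saline. The 3 named lymphocyte genes of 11, 2 with a higher and 1 with a lower mean in ICH + rhCDNF and a median of 0.39, summed to 122 to 148 CPM in ICH + rhCDNF and 124 to 250 CPM in ICH + saline. None of these genes passed the adjusted threshold, and their part in the difference of Ltc4s was not tested. The median r with Ltc4s over all libraries was 0.73 for the lymphocyte genes (-0.63 to 0.77) and 0.47 for the endothelial genes. It was 0.24 for the oligodendrocyte genes, 0.22 for the astrocyte genes and -0.24 for the neutrophil gene. On deviations from group means the lymphocyte median was 0.64, against 0.55 for the microglia list. A high r with Ltc4s was thus not particular to the microglia list.

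The list of leukotriene and eicosanoid genes held 29 genes beside Ltc4s, of which 8 could be named and tested. Of these, 3 had a higher and 5 a lower mean in ICH + rhCDNF, 0 passed the adjusted threshold, and the median log2 fold change was -0.22, or -0.11 without S6. The genes of 5-lipoxygenase, its activating protein, leukotriene A4 hydrolase and the cysteinyl leukotriene receptors were not named and are not analysed here. Ltc4s had the highest log2 fold change of the named genes of this list other than Alox15, whose value rested on 1 library. Since Ltc4s was chosen for this difference, its rank is a description only.

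Mgst1 encodes a microsomal glutathione transferase of the same protein superfamily as leukotriene C4 synthase. It had 58.5, 105, 108, 106 and 118 CPM in S6 to S10, against 143, 117, 131, 127 and 126 CPM in S1 to S5. The log2 fold change was -0.38 (SE 0.15, edgeR adjusted p = 0.38) with all libraries and -0.24 without S6. Dpep2, a dipeptidase that trims leukotriene D4, averaged 17.6 ± 3.47 CPM in ICH + rhCDNF and 20.5 ± 1.51 CPM in ICH + saline. Its lowest library of all was S6, at 12.7 CPM. Ltc4s and these 2 genes of its pathway and family thus had means on opposite sides, and each of the 3 overlapped between the groups.

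Lpcat2, an enzyme of platelet-activating factor synthesis, averaged 172 ± 37.2 CPM in ICH + rhCDNF and 138 ± 13.7 CPM in ICH + saline, and had the highest r with Ltc4s among these genes, 0.70. Pla2g7, which degrades platelet-activating factor, averaged 409 ± 90.0 CPM in ICH + rhCDNF and 483 ± 39.6 CPM in ICH + saline. Ptgs1, the constitutive cyclooxygenase, averaged 69.7 ± 22.3 CPM in ICH + rhCDNF and 56.1 ± 8.04 CPM in ICH + saline. The secreted phospholipase gene Pla2g2d averaged 20.1 ± 10.4 CPM in ICH + rhCDNF and 25.9 ± 7.42 CPM in ICH + saline, and the prostaglandin E2 receptor gene Ptger2 averaged 44.5 ± 8.22 CPM in ICH + rhCDNF and 51.7 ± 6.08 CPM in ICH + saline. None of these 5 genes passed the adjusted threshold. S6 was the lowest of all libraries for Pla2g7, at 256 CPM, and for Ptger2, at 30.4 CPM. It was the highest of all for Lpcat2, at 223 CPM, and for Ptgs1, at 101 CPM. The log2 fold change of Lpcat2 was 0.32 with all libraries and 0.21 without S6.

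The fitted log2 fold change of Alox15, a lipoxygenase gene, was 3.87 (SE 1.29, edgeR adjusted p = 0.37), and 0.57 without S8. Its level was 64.8 CPM in S8 and 1.05 to 1.93 CPM in the other ICH + rhCDNF libraries, against 0.653 to 1.24 CPM in ICH + saline. The 2 named red cell genes, Hba-a1 and Hbb of multigene families whose copies can share reads, summed to 1060 CPM in S8 and to at most 54.7 CPM in any other library. Ltc4s was at 15.8 CPM in S8, the lowest of the 4 libraries that exceeded ICH + saline.

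Over all named genes, those whose pattern was most like that of Ltc4s in Pearson's r on log2 CPM over the 10 libraries were Txnip (0.95), Cd101 (0.92), Klhdc8b (0.91), Plekhg2 (0.89) and Pm20d2 (0.88). Txnip, which encodes the thioredoxin-interacting protein, had 293, 306, 273, 332 and 256 CPM in S6 to S10, against 244, 260, 254, 256 and 273 CPM in S1 to S5. As with Ltc4s, S9 was the highest of all libraries and S7 the next, and S10 lay within the ICH + saline range. Cd101, a surface immunoglobulin-family receptor gene, had 34.0, 36.6, 30.7, 36.5 and 22.2 CPM in S6 to S10, against 23.4, 24.3, 19.9, 28.7 and 26.5 CPM in S1 to S5. On deviations from the group means, Txnip had an r of 0.92 (exact permutation p = 0.0041, adjusted p = 0.82) and Cd101 0.87 (exact permutation p = 0.00083, adjusted p = 0.80). Neither passed adjustment over all genes, which 1 gene alone could not pass at the smallest p of this test, 6.9e-05. Both were picked for the highest pooled r in these libraries, which holds these deviations, so their unadjusted p are no independent support. Without S9 and S7 the pooled r was 0.84 for Txnip and 0.89 for Cd101.

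The lowest r with Ltc4s among named genes belonged to Rab3d, a small GTPase of secretory vesicles (-0.89), Prdx1, a peroxiredoxin (-0.85), and Cisd1, an iron-sulfur protein of the outer mitochondrial membrane (-0.85). Rab3d averaged 12.7 ± 1.87 CPM in ICH + rhCDNF and 15.1 ± 0.975 CPM in ICH + saline. Over all 12198 genes, named or not, 7 had an r with Ltc4s over 0.9 and 6 an r under -0.9.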

How the data were processed

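RNA of CD11b+ cells from 10 libraries was ribo-depleted and made into directional libraries. Per the labels, the authors' notes name Trimmomatic 0.36, STAR 2.5.3a, Subread 1.6.4 (featureCounts), DESeq2 and Rnor_6.0. The deposited values are raw counts per Ensembl gene, and all 10 columns were used. Whether counting used strand is not given in the sources used here, so reads shared with Mgat4b, whose annotated range overlaps Ltc4s on the other strand, are uncertain. Columns carry a library number and index, and their groups came from the headings of the study's table of the same libraries, so a column is known by group and not by sample.

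No table used here pairs the identifiers with symbols. They were tied to 789 of 1904 symbols of that table by the SD of the log2 ratio to CPM over the libraries (mutual best, next best at least 1.5 times as large), and its values were used for nothing else. A wrong tie is possible.

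The fits used edgeR 4.0.16 (filter by expression, TMM, quasi-likelihood test, no covariates, Benjamini-Hochberg), limma 3.58.1 and DESeq2 1.42.0 under R 4.3.3. Log2 CPM carried a prior count of 2. The filter kept 12199 of 32883 genes, of which 19826 had a count. The p-values measure only the spread between these libraries. Correlations used numpy 2.4.6, and the scripts were tested on simulated data. A gene is called named where its identifier was tied. By rule, the text describes singly up to 20 tied genes of the microglia list, all of the eicosanoid list, other list members and the 5 highest and 3 lowest in r with Ltc4s, while counts, medians and the plot take all 25 tied microglia genes. The member and the lists were chosen with earlier results of these data known. Alternatives were other scalings, no filter, DESeq2, the likelihood ratio test and leaving out each library.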

Additional observations from a re-analysis of the deposited data

Results flagged for a closer look

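Within each group of 5, a library was singled out where its gap to the nearest other library, divided by the range of the group, exceeded Dixon's critical value of 0.710. Over 42 genes named for Ltc4s and 2 groups, 84 sets of 5 were examined and 3 were singled out; chance alone gives about 1 in 20. Ltc4s was not among them. Alox15 was at 64.8 CPM in S8 of ICH + rhCDNF, with the next library at 1.93 CPM. Mgst1 was lowest in S6 of ICH + rhCDNF, at 58.5 CPM, with the next library at 105 CPM. Lpcat2 was lowest in S1 of ICH + saline, at 114 CPM, with the next library at 142 CPM.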

How the results depend on the processing

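The log2 fold change of Ltc4s was 0.91 to 0.96 under other scalings, without the filter, with DESeq2 and as a ratio of means or medians, and 0.74 to 1.10 with a library left out. The count of genes called, 0, was 3 by the likelihood ratio test, 2 by DESeq2 and 0 with each library left out. The median r with the microglia list was 0.54 to 0.82 under the other choices and 0.55 to 0.79 with a library left out. The median log2 fold change of that list was 0.39 to 0.40 under other scalings and 0.28 to 0.48 with a library left out, alternatives chosen after seeing the data. The r of Ltc4s with F11r changed sign within ICH + saline, to -0.26 over 5 libraries, and the cause was not tested. With Sall1 it was 0.71 over all libraries, 0.43 on deviations from group means, 0.37 within ICH + rhCDNF and 0.92 within ICH + saline. No paired analysis was possible because the columns carry no replicate number shared between the groups. Ltc4s had 131 to 447 counts per library, which sets its counting error.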
